A study of Mus musculus with 8 samples.

Results

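The genes described here are the claudins Cldn1, Cldn2, Cldn3, Cldn4, Cldn7 and Cldn8, occludin (Ocln), Tjp1 and F11r. Every probe set whose platform annotation names exactly 1 of these 9 genes was taken, which gave 17 probe sets of 22626 in all, for 9 of the 12393 genes the array names. Cldn1 and Cldn3 had 4 probe sets each, Cldn2 and F11r had 2 each, and the other 5 genes had 1 each.

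Tight junctions seal the space between neighbouring epithelial cells near their apical surface, and in the prostate they lie between the secretory luminal cells and separate the lumen from the tissue beneath. Claudins, a family of multi-pass membrane proteins, form the strands of the junction. Most of them tighten it, while some form pores for ions. Occludin and the junctional adhesion molecule F11r (JAM-A) sit in or beside the strands, and the scaffold Tjp1 (ZO-1) ties them to the actin cytoskeleton.

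The tissue was ventral prostate from FVB males aged 8 weeks, with 1 Affymetrix array per sample. There were 4 arrays from mice transgenic for the polyoma virus middle T antigen (MT) and 4 from wild-type mice (WT), and the study set the cancer that middle T induces against normal prostate. Middle T sits at the cell membrane, where it recruits Src-family kinases. The labels used here name no promoter for the transgene and no founder line. They leave unsaid whether each array stands for its own animal or for pooled animals, so p-values here reflect array-to-array spread, part of which may be technical.

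All levels are log2 values after RMA normalization, differences are MT minus WT, and a gene is called higher or lower where the adjusted p of limma, a linear model fitted to all probe sets, was under 0.05. Arrays correlated at 0.996 to 0.997 within MT, at 0.992 to 0.994 within WT and at 0.968 to 0.973 between the groups. Pbsn, the prostatic secretory protein probasin and a marker of the labelled tissue, averaged 9.12 ± 0.68 in MT and 13.28 ± 0.38 in WT (SD, n = 4 each). Genes of the seminal vesicle, which adjoins the prostate, read near the bacterial controls described below, with a mean over 6 genes of 3.55 to 3.69 on MT arrays and 3.58 to 3.75 on WT arrays. The 3′ minus 5′ difference of the Gapdh control probe sets, a sign of RNA quality, ran from 0.45 to 0.64 in MT and from 0.55 to 0.92 in WT (exact permutation p = 0.0857). That of the beta-actin control leaned the same way, from 0.569 to 0.849 in MT and from 0.715 to 1.05 in WT (exact permutation p = 0.114). In such bulk tissue, fewer cells of a type and less RNA per cell cannot be told apart.

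Cldn4, Cldn7, Cldn3, F11r and Ocln were higher in MT, in this order of the difference. Cldn2, Cldn8 and Tjp1 did not pass the test on any of their probe sets. Cldn1 had 1 probe set that was lower in MT and 3 that did not pass. Over the 17 probe sets, 8 were higher, 1 was lower and 8 did not pass, and 4 of the 8 higher ones belonged to Cldn3. The share called higher was 47.1% among the 17 and 18.1% among all 22626 probe sets, of which 19.7% were lower and 37.8% changed in either direction. The same 8 and 1 probe sets had MT and WT values that did not overlap, as had 37.5% of all. The median difference of the 17 was 0.12, beside -0.01 over all probe sets. With each gene stood for by its probe set with the highest mean, 5 of 9 were higher and 0 lower, beside 19.3% higher and 20.7% lower of 12393 genes.

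The promoters of these genes are shown first. RefSeq windows from 250 bases before to 50 after an annotated start (build GRCm38.p6) were at hand for 8 of the 9 genes, all but Cldn8. Cldn7 and Ocln had 2 windows each, which gives a motif more room to occur. They were searched on both strands for CAGGTG, the E-box that repressors such as Snail and Zeb proteins can bind, whose other strand reads CACCTG, and for TGANTCA, a site of AP-1. They were also searched for the GC box, whose letters are GGGCGG, and for the grainyhead motif, whose letters are AACNGGTT. No E-box match overlaps a match of AP-1. The motifs were chosen, and the genes grouped by their calls, with the expression values known. How the motifs divide the genes is therefore a description, and a link to the differences was not tested. The E-box letters were found in at least 1 window of each of the 5 genes that were higher (Cldn3, Cldn4, Cldn7, Ocln and F11r) and in no window of Cldn1, Cldn2 or Tjp1. Of all 27025 genes with a window, 22.6% have one that holds them, and of all 32851 windows 20.2% do. GC boxes were found in 7 of the 8 genes, all but Cldn2, beside 38.2% of all genes, and grainyhead letters in none, beside 2.35% of all genes. A match is a run of letters and was not tested as a binding site.

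The 30 bases around each E-box are given below to show how the sites compare, with the 6 letters of the motif in capitals, each read 5′ to 3′ on the strand of its gene.
Cldn4, minus strand, chr5:134946931-134946960: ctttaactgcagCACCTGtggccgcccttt
Cldn4, minus strand, chr5:134946906-134946935: cctttcttgttgCAGGTGcaggcaggaaag
Cldn3, plus strand, chr5:134986233-134986262: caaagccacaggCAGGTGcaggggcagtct
Cldn7, plus strand, chr11:69965312-69965341: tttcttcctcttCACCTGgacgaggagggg
Cldn7, plus strand, chr11:69965352-69965381: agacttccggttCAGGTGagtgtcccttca
Ocln, minus strand, chr13:100552694-100552723: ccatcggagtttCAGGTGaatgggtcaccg
Ocln, minus strand, chr13:100552549-100552578: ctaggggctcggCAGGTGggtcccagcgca
F11r, plus strand, chr1:171437427-171437456: agttcggggttgCACCTGcgtacggtgagt

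The Cldn4 sites lie 14 bases before and 12 bases into the transcript, and the Cldn3 site 32 bases into it. Both sites of Cldn7 belong to the downstream one of its annotated starts, 97 and 57 bases before it, and the window of its upstream start holds none. The Ocln sites lie 8 bases into the transcript of its upstream start and 68 bases before its downstream start. The F11r site lies 122 bases before the start.

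The AP-1 letters were found in Cldn4 and F11r and in none of the other 6 genes, beside 8.97% of all genes. The 250 bases before the start of Cldn4, the gene with the largest difference, hold them at 240 and 158 bases before it. They are printed on the minus strand of chr5:134946935-134947184, with both AP-1 sites and the E-box in capitals and the GC box at 44 bases before the start left in lower case.
Cldn4 promoter: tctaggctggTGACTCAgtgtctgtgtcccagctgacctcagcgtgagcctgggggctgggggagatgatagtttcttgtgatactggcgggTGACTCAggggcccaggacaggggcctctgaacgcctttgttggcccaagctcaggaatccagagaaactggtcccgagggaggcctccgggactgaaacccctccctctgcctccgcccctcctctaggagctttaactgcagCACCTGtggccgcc

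Cldn4, a barrier claudin first known as the receptor of a Clostridium enterotoxin, had the largest difference of the 9 genes. Its values were 10.72, 10.60, 10.90 and 11.19 on MT arrays 1 to 4, against 9.57, 9.25, 9.33 and 10.21 on WT arrays 1 to 4. The groups did not overlap, and WT array 4 stood nearest to the MT arrays. The difference was 1.26 ± 0.20 (SE), a 2.4-fold rise (limma adjusted p = 0.000414). It was the only one of the 17 probe sets past the threshold with a change of at least 2-fold, a size reached by 4.53% of all probe sets.

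Cldn3, the close relative of Cldn4 that binds the same toxin and sits next to it on chromosome 5, was higher on all 4 of its probe sets. On the probe set with the highest mean it read 11.73, 11.51, 11.97 and 11.94 in MT, against 10.84, 11.15, 11.16 and 11.07 in WT. The lowest MT array lay above the highest WT array. The differences on the 4 probe sets were 0.73, 0.71, 0.69 and 0.68, with adjusted p-values from 0.000353 to 0.0013. These probe sets may share transcripts or probes, so they are not 4 separate observations of the gene.

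Within each array, Cldn4 minus Cldn3 averaged -0.94 ± 0.14 in MT and -1.47 ± 0.50 in WT (SD, n = 4 each). The change of Cldn4 exceeded that of Cldn3 by 0.53, which did not pass (two-sided exact permutation p = 0.114 from 70 possible assignments, smallest possible 0.0286). Without WT array 4, whose Cldn4 value was the highest in its group, the excess was 0.73 and the exact p was 0.0286, the smallest p that can be had with these arrays. WT array 4 (-0.857) was the only WT array inside the MT range (-1.07 to -0.753), so leaving it out made the groups separate. Without each other single array the excess did not pass (exact permutation p from 0.143 to 0.229).

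Cldn7, a claudin found along the lateral membrane as well as in the junction, had the smallest adjusted p of the 9 genes. Its values were 10.25, 10.29, 10.47 and 10.31 in MT, against 9.50, 9.65, 9.41 and 9.50 in WT. Both groups were tight and lay well apart. The difference was 0.81 ± 0.07, a 1.76-fold rise (adjusted p = 8.53e-06).

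**Figure D1:**
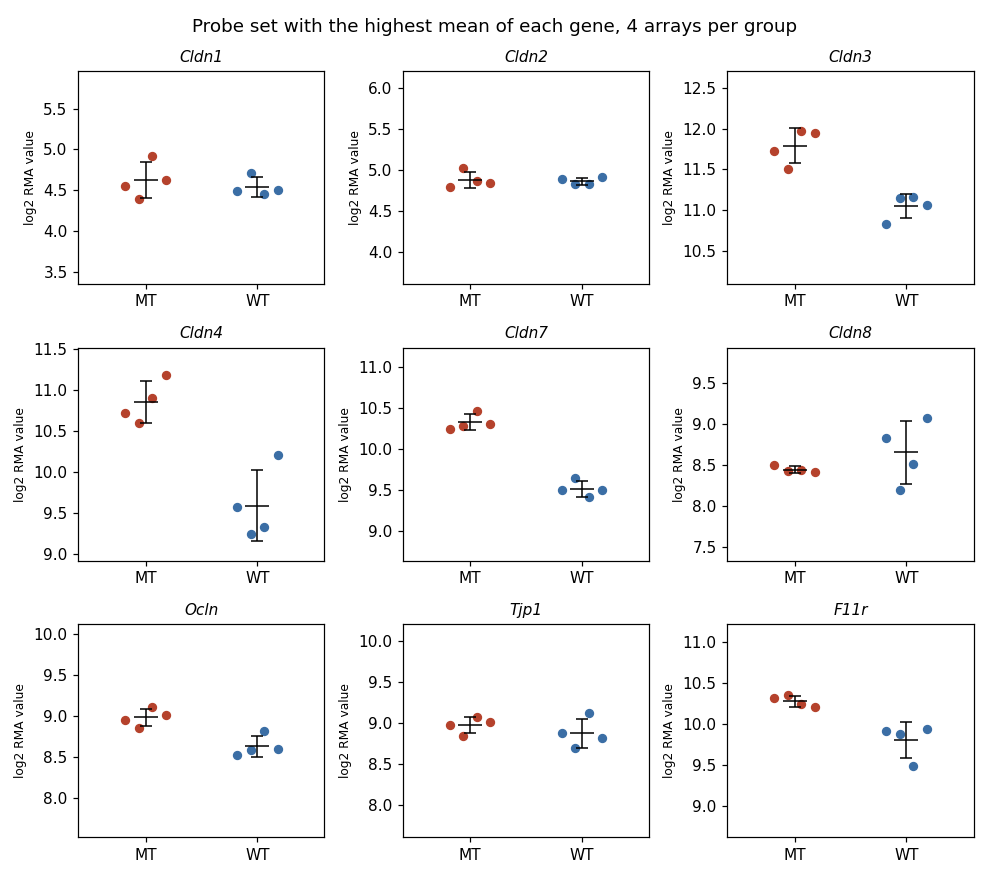
Log2 RMA values on each MT array (left in each panel) and WT array (right) for the probe set with the highest mean of each of the 9 genes, with the mean and SD as black bars; every panel spans the same 2.6 log2 units. The MT arrays lie above all WT arrays for Cldn3, Cldn4, Cldn7, Ocln and F11r, and the groups overlap for Cldn1, Cldn2, Cldn8 and Tjp1.

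Cldn8, a claudin of tight epithelia that in the kidney interacts with Cldn4, did not pass the test. It read 8.50, 8.42, 8.43 and 8.41 in MT, against 8.83, 8.20, 8.51 and 9.07 in WT. The MT arrays lay close together, inside the much wider WT range. The difference was -0.21 ± 0.15 (adjusted p = 0.315, 95% confidence interval -0.54 to 0.12). Without WT array 2, the lowest of its group, the difference was -0.36 (adjusted p = 0.0293), and without WT array 4, the highest, it was -0.07 (adjusted p = 0.706), so the size and the call of Cldn8 rest on these WT arrays.

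Cldn2, which forms a pore for cations and water in leaky epithelia, read low on every array. Its probe sets ran from 4.59 to 5.03 in MT and from 4.66 to 4.91 in WT, and the groups overlapped on both. The differences were 0.02 ± 0.07 (95% confidence interval -0.13 to 0.17) and 0.03 ± 0.07 (-0.14 to 0.19), at adjusted p-values of 0.862 and 0.818. For scale, 12 controls that target bacterial RNA spanned 2.57 to 3.90, while the highest of 15 controls of an older design gave 5.55 to 5.86. All values of Cldn2 lay between these marks.

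The 4 probe sets of Cldn1, a claudin needed for the barrier of the skin, disagreed. On 1437932_a_at the values were 3.97, 3.79, 4.12 and 4.39 in MT, against 4.73, 4.51, 4.97 and 4.91 in WT, with no overlap. The difference between the groups was -0.71 ± 0.13 (adjusted p = 0.00146). MT array 2 lay above the highest bacterial control of its own array (3.62), though inside the range of these controls over all arrays. On 1450014_at, annotated to the RefSeq transcript of the gene, MT read 4.55, 4.40, 4.92 and 4.62 and WT read 4.50, 4.71, 4.45 and 4.51, which overlap, and the difference was 0.08 ± 0.11 (adjusted p = 0.599). The 2 others read from 2.86 to 3.39 in MT and from 2.70 to 3.36 in WT, at or under the highest of the 12 controls on all 8 arrays, and did not pass (adjusted p = 0.193 and 0.984). Averaged over its 4 probe sets, Cldn1 differed by -0.13 (adjusted p = 0.148). No direction is given for the gene on these values.

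**Figure D2:**
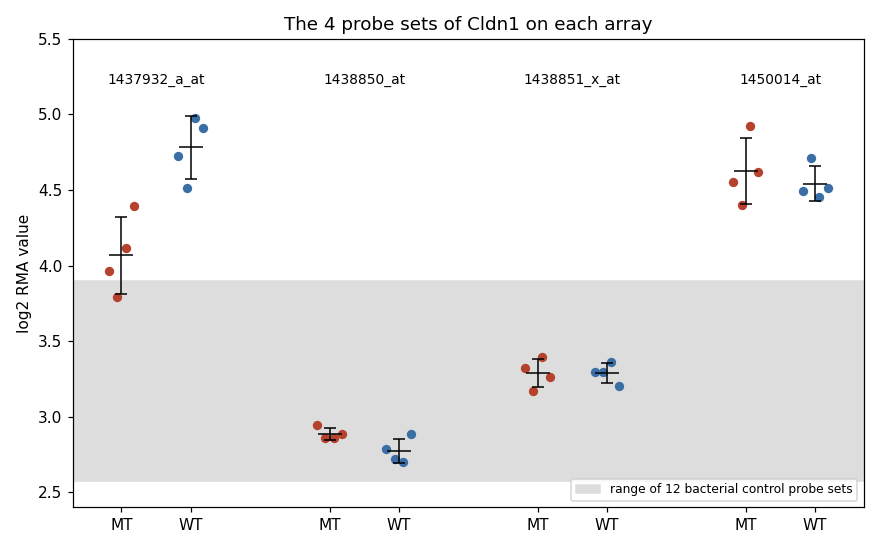
Log2 RMA values of the 4 Cldn1 probe sets on each MT array (left of each pair) and WT array (right), with mean and SD; the grey band spans the 12 bacterial control probe sets, 2.57 to 3.90. Only 1437932_a_at separates the groups, 1438850_at and 1438851_x_at lie within the band, and 1450014_at lies above it with overlapping groups.

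Ocln, the membrane protein occludin, read 8.96, 8.86, 9.12 and 9.01 in MT, against 8.53, 8.59, 8.82 and 8.60 in WT. The groups were separate, but the highest WT array came close to the lowest MT array. The difference was 0.35 ± 0.08, a 1.28-fold rise (adjusted p = 0.00575).

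F11r, an immunoglobulin-like adhesion molecule of epithelial, endothelial and blood cells, read 10.32, 10.35, 10.24 and 10.21 on 1424595_at in MT. The WT arrays read 9.91, 9.88, 9.48 and 9.94, all below the MT arrays, with WT array 3 well under the other 3. The difference was 0.48 ± 0.10 (adjusted p = 0.00311). Its other probe set, 1436374_x_at, averaged 5.05 ± 0.11 in MT and 5.11 ± 0.06 in WT (SD, n = 4 each) and did not pass (difference -0.06, adjusted p = 0.578). With both probe sets averaged, F11r differed by 0.21 (adjusted p = 0.0184). This second probe set read about as low as those of Cldn2. Of 6 neutrophil genes, from cells that also carry F11r, 3 were higher, namely S100a8 (3.3), S100a9 (2.7) and Csf3r (0.63). Cxcr2, Mpo and Elane did not pass. The mean level of the 6 was 5.53 to 5.98 in MT and 4.59 to 4.70 in WT. T and B cell genes were higher for 3 of 8, with 5.18 to 5.92 in MT and 4.97 to 5.02 in WT. The part of such cells in the F11r result was not tested.

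Tjp1, the scaffold that binds the tails of claudins, read 8.98, 8.85, 9.07 and 9.01 in MT, against 8.88, 8.69, 9.12 and 8.82 in WT. The groups overlapped, and the highest single value was on WT array 3. The difference was 0.10 ± 0.09 (adjusted p = 0.454, 95% confidence interval -0.11 to 0.30).

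Epithelial and stromal genes differed between the same arrays. E-cadherin (Cdh1), the epithelial adhesion molecule Epcam and the luminal keratins Krt8 and Krt18 were all higher in MT, by 0.60, 0.82, 1.01 and 0.62. Their mean was 12.02 to 12.11 on MT arrays and 11.23 to 11.37 on WT arrays, a difference of 0.76. Smooth muscle genes were lower for 10 of 10, with a mean level of 7.80 to 8.57 in MT and 8.79 to 9.45 in WT, and fibroblast genes for 8 of 9, with 7.35 to 7.87 in MT and 8.27 to 9.02 in WT. Of the basal genes, 3 of 5 were lower and 0 higher (Krt5, Krt15 and Trp63 fell), with a mean of 6.05 to 6.16 in MT and 6.47 to 7.02 in WT. Of 6 luminal secretory genes, 5 were lower and 1 higher, with 9.86 to 10.45 in MT and 12.30 to 12.60 in WT. Macrophage genes were higher for 6 of 10 and lower for 1, with 7.77 to 8.01 in MT and 6.90 to 7.65 in WT. How far these shifts in cell type genes, which may be of cell number or of RNA per cell, carry the differences of the junction genes was not tested.

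The values were therefore also set against that epithelial level, by centring each array on its mean of Cdh1, Epcam, Krt8 and Krt18. On this scale Cldn4 remained higher, by 0.50 ± 0.20 (adjusted p = 0.0279), although its groups then overlapped. Cldn7 (0.05, 95% confidence interval -0.12 to 0.22, adjusted p = 0.515) and Cldn3 (-0.03 on its highest-mean probe set, -0.29 to 0.23, adjusted p = 0.803) moved with the epithelial genes to within these intervals. Ocln and F11r changed sign and were lower, by -0.41 ± 0.10 (adjusted p = 0.00177) and -0.29 ± 0.10 (adjusted p = 0.012), with groups that overlapped for F11r. Tjp1 (-0.66 ± 0.12, adjusted p = 0.00013) and Cldn8 (-0.97 ± 0.16, adjusted p = 8.48e-05) were lower as well. Of all probe sets, 2.47% were higher and 92.8% lower on this scale, whose centring moved the median probe set by -0.76, so a lower call there says only that the gene did not keep up with the 4 epithelial genes. With so many probe sets called, the adjustment raises a p-value near the threshold only slightly, so the Cldn4 call there is weaker than one on the deposited scale.

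**Figure D3:**
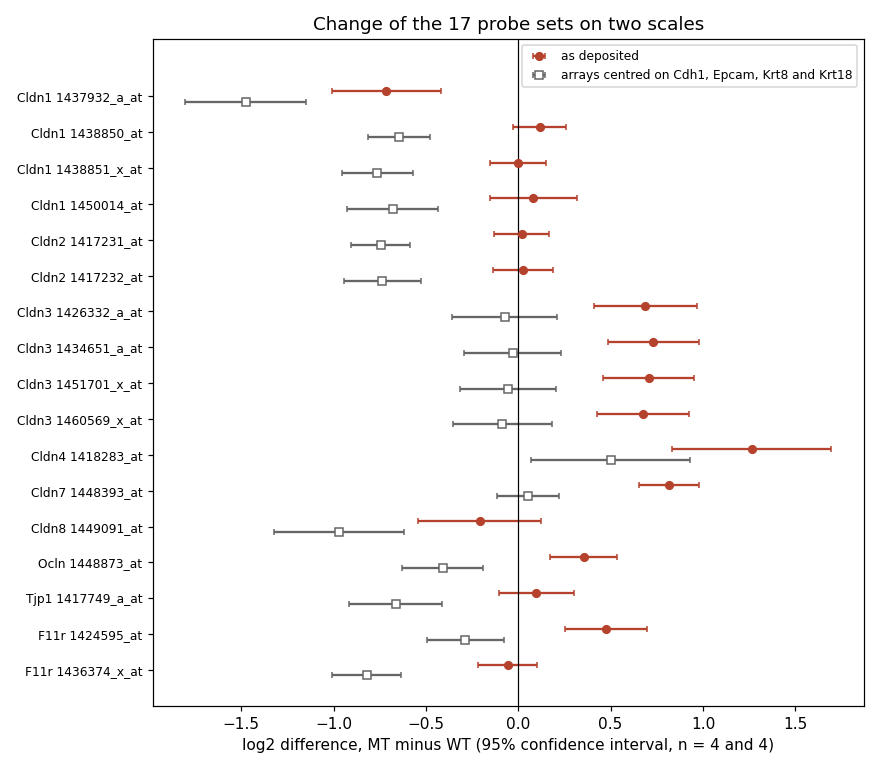
Log2 difference, MT minus WT, of the 17 probe sets with 95% confidence intervals (n = 4 arrays per group), for the values as deposited (filled red circles) and after centring each array on Cdh1, Epcam, Krt8 and Krt18 (open grey squares). As deposited, Cldn4 stands farthest to the right at 1.26; after centring only Cldn4 keeps an interval above 0, Cldn3 and Cldn7 straddle 0, and the rest lie below it.

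Of the 13 other claudins measured, 1 was higher, 4 were lower and 8 did not pass, with a median of -0.10; one of the 13, Cldnd1, was matched only through an older symbol of Cldn25. Cldn10, which was well expressed, averaged 10.58 in MT and 10.35 in WT and was higher by 0.22 (adjusted p = 0.0294). Cldn9, Cldn13, Cldn14, Cldn15, Cldn16, Cldn18 and Cldn19 did not pass and read low, at means of 4.28 to 5.60 in MT and 4.13 to 5.47 in WT, beside 5.55 to 5.86 for the highest control of the older design. Cldn23 had the largest fall, averaging 7.31 ± 0.09 in MT and 8.53 ± 0.23 in WT (difference -1.23, adjusted p = 5.63e-06). Cldn5, the claudin of blood vessels, was lower by -0.37 (adjusted p = 0.00167). It read low as well, at means of 5.35 in MT and 5.72 in WT, beside 5.55 to 5.86 for the highest older control. With Cldn5 included, 2 of 9 endothelial genes were lower, and the 9 had a mean of 5.0 to 5.11 in MT and 4.96 to 5.28 in WT. Cldn11 (-0.34) and Cldn6 (-0.34) were lower too, at levels of about 3 to 4, in or just above the range of the bacterial controls.

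Scaffolds and membrane partners of the junction went both ways, with 7 of 17 higher, 4 lower and a median of 0.02. Cxadr, an adhesion receptor of the junction that viruses also use, averaged 8.53 ± 0.08 in MT and 7.06 ± 0.07 in WT, a difference of 1.47 (adjusted p = 6.7e-08), larger than that of any of the 9 genes, and 2 of its 3 other probe sets were higher as well. Tjp3 (ZO-3), the epithelial relative of Tjp1, was higher by 0.97 ± 0.09 (adjusted p = 7.18e-06), where Tjp1 itself did not pass; the difference between the scaffolds was not tested. The multi-PDZ scaffold Mpdz (-1.33) and the MARVEL-domain protein Marveld1 (-0.94) were lower, at adjusted p-values of 1.32e-05 and 1.58e-05. Of the 3 Marveld1 probe sets, 1 did not pass (difference 0.17).

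Among genes of the apical polarity complexes, 5 of 15 were higher and 3 lower, with a median of 0.02. The largest differences were those of Pard6b (0.86), Patj (0.51), the small GTPase Cdc42 (0.50) and Crb3 (0.46), with adjusted p-values from 1.04e-05 to 0.000702. The other probe sets of these genes were not all called: for Patj 1 of 1, for Crb3 2 of 2 and for Cdc42 2 of 3 did not pass.

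The neighbouring adherens junctions and desmosomes leaned upward, with 10 of 18 genes higher, 2 lower and a median of 0.32. The desmosomal cadherin Dsc2 (1.35), the adhesion molecule Nectin2 (1.18) and alpha-catenin Ctnna1 (0.61) were higher, at adjusted p-values from 3.61e-07 to 6.24e-05. Of the 3 Ctnna1 probe sets, 1 did not pass (difference 0.003). Perp, a tetraspan protein of desmosomes and a target of p63, was lower. It averaged 8.33 ± 0.13 in MT and 10.52 ± 0.09 in WT (-2.19, adjusted p = 1.32e-08). The basal genes Krt5 and Krt15 were lower on the same arrays, by -1.07 and -1.35, and their part in this was not tested.

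Of 11 proteases, protease inhibitors and kinases that act on junctions, 6 were higher and 1 lower, with a median of 0.27. The membrane protease matriptase, St14, was higher by 1.11 ± 0.07 (adjusted p = 8.36e-07), as were its inhibitor Spint1 (0.69) and the protease prostasin, Prss8 (0.37). Myosin light chain kinase, Mylk, which is also abundant in smooth muscle, was lower by -0.95 (adjusted p = 0.00172).

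The list of 19 factors that act on junction genes held transcription factors and the splicing factors Esrp1 and Esrp2. Of the 19, 6 were higher, 4 lower and 9 did not pass, with a median of -0.02. The epithelial factors Elf3 (1.76) and Klf5 (0.92) were higher, and Grhl1 (-1.01) and Klf4 (-0.90) lower, with adjusted p-values from 6.7e-08 to 0.000196. Grhl2 and the E-box factors given next were chosen after their values were seen. Grhl2, a grainyhead factor that activates claudin genes, was higher by 0.55 (adjusted p = 8.89e-05). The factors of the list that bind E-boxes did not move one way. Zeb1, also a gene of stromal cells, was lower by -0.82 (adjusted p = 0.00016) and Twist2 by -0.27 (adjusted p = 0.00952), while Tcf3 was higher by 0.26 (adjusted p = 0.043). Snai1 (0.12), Zeb2 (0.09), Snai2 (-0.25) and Twist1 (-0.14) did not pass (adjusted p = 0.253, 0.652, 0.0809 and 0.191). Snai2 (3.58 in MT, 3.83 in WT) and Twist1 (3.75 and 3.89) averaged within the 2.57 to 3.90 of the bacterial controls. Snai1 (5.40 and 5.27) and Zeb2 (4.49 and 4.40) averaged under the 5.55 to 5.86 of the highest older control. Little can be read for them at these levels. The junction lists together held 93 genes outside the 9, these factors and the proteases, inhibitors and kinases included. Of the 93, 35 were higher, 18 lower and 40 did not pass, beside 19.3% higher and 20.7% lower among all genes. Cdh1 was counted among the 93 and also among the 4 epithelial genes.

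**Figure D4:**
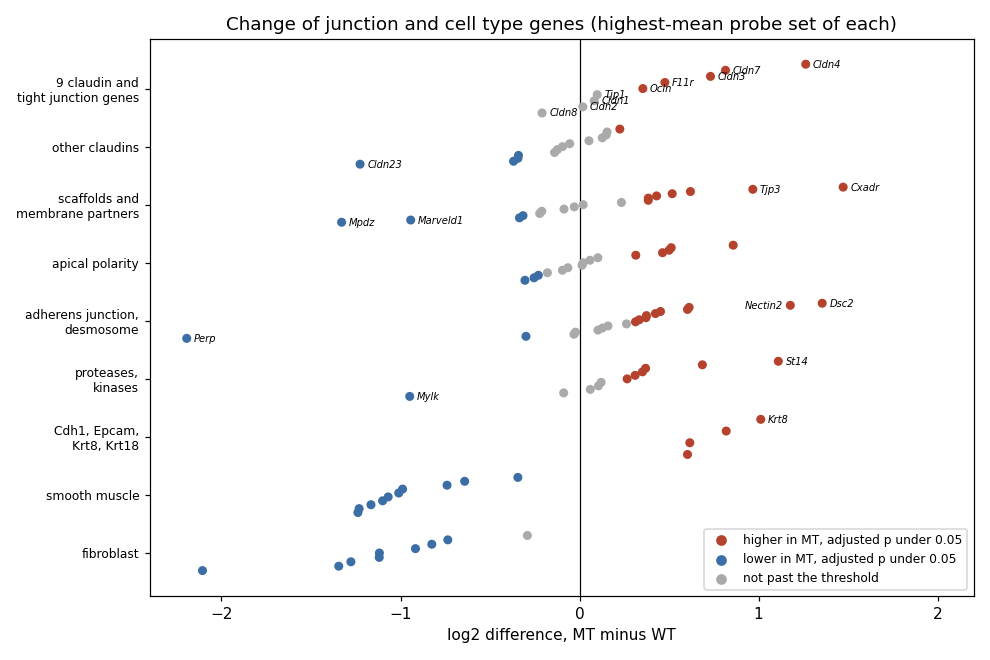
Log2 difference, MT minus WT, of the 9 genes, 5 junction lists (transcription and splicing factors are not drawn) and 3 lists of cell type genes. Each measured gene is shown by its probe set with the highest mean. Red marks genes called higher in MT, blue those called lower, and grey those that did not pass. The 9 genes (top row) range from -0.21 for Cldn8 to 1.26 for Cldn4, the 4 epithelial genes lie from 0.60 to 1.01, and smooth muscle genes lie below 0 without exception.

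For each of the 9 genes, the gene most like it was taken as that with the highest Pearson correlation over the 8 arrays. Each r is the highest over all other genes with only 8 points, so a high value can arise by selection alone, and none was tested. The points share the split into 2 groups, so for genes called different the correlation mostly restates that difference. Cldn4 was most like Dsp, which encodes the desmosomal plaque protein desmoplakin (r = 0.989), Cldn7 like the polarity kinase Mark2 (r = 0.996), and Cldn3 like Hoxb4 (r = 0.98). F11r was most like Leprotl1 (r = 0.991) and Ocln like Tnfaip2 (r = 0.981). For the genes whose probe set with the highest mean did not pass, the closest were Tgfbr1 for Tjp1 (r = 0.958), Adamtsl4 for Cldn8 (r = 0.95), Kcnj15 for Cldn1 (r = 0.931) and Pcdh8 for Cldn2 (r = 0.897), the last of which read no higher than the highest bacterial control on any array.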

How the data were processed

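The authors' deposited values are log2 expression values per probe set, made with RMA per the submitters' processing notes. RMA corrects background, normalizes by quantiles and summarises probes, which fixes the total distribution of each array, so every difference is relative to the other probe sets. No RMA version is given in the sources used here. Trizol and an RNeasy kit were used for the RNA, per the labels' protocols. The values carry no detection calls, and the number of arrays limits their precision.

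All 8 columns were used as deposited, with no filter and no imputation. The 64 control probe sets were left out of the fit. The platform annotation gave 20380 probe sets 1 symbol, 691 several and 1555 none, and 20351 of the first matched the mouse RefSeq gene table by gene identifier, with 0 symbols updated. A single symbol without such a match was kept as given. Probe sets with several symbols or none carry no gene name here.

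The test was limma 3.58.1 in R 4.3.3 (lmFit and eBayes, two-sided) on 22626 probe sets with no covariate and Benjamini-Hochberg adjustment at 0.05. It was tested on simulated data. Errors of differences are limma's standard errors. In lists, each gene was stood for by its probe set with the highest mean. Promoters were read with Python 3.11.15, and figures drawn with matplotlib 3.10.9. The genes, lists and alternatives were chosen with earlier results of these data known. Genes were named by rule: all 9 genes, up to 4 per junction list and up to 2 per cell type list by the size of the difference among those past the threshold with separate groups, the 4 epithelial genes, and the most alike gene of each of the 9. Genes that complete a count were named beside it. Alternatives were a replicate block, another prior, array weights, 3 scalings, a filter on level, 3 choices of features, 2 thresholds and leaving out arrays.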

Additional observations from a re-analysis of the deposited data

Results flagged for a closer look

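One value stood apart from its group. F11r on 1424595_at read 9.48 on WT array 3, against 9.88 to 9.94 on the other 3 WT arrays, a gap of 0.85 of the group's whole range, past Dixon's 95% critical value for 4 samples. This was 1 of 34 groups of 4 arrays tested over the 17 probe sets, and chance flags about 1 in 20. The F11r call on this probe set held without that array, as it did without any other single array (differences from 0.37 to 0.52, adjusted p at most 0.0119). The cause was not tested.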

How the results depend on the processing

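The 9 calls among the 17 probe sets were all kept with another prior, array weights, renewed quantile normalization, median centring, the replicate block, without WT array 4 and MT array 2 together, and without any single array. Leaving out single arrays gave 8 higher and 1 to 2 lower among the 17 (the second is Cldn8), and 3551 to 4052 higher and 3804 to 4325 lower over all probe sets. The excess of Cldn4 over Cldn3 ranged from 0.39 to 0.73 there, the highest without WT array 4 (exact p = 0.0286). Without each other array its exact p was 0.143 to 0.229. Same-numbered arrays deviated together from their group means at correlations of 0.08 to 0.16, beside a mean of -0.038 for other pairs. All 8 arrays were most like the one sharing their number. The labels name no pairing and the main fit used none, so its p-values do not take this likeness into account. Its source was not tested. The replicate block, which does, gave 4110 higher and 4523 lower, with 8 and 1 among the 17. The excess of Cldn4 over Cldn3 was 0.53 with it (exact p = 0.125, the smallest 4 pairs allow).

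Fewer features or stricter rules lowered the counts by construction. With 1 probe set per gene, 2447 were higher and 2641 lower, 5 and 0 of them among the 9 genes; with probe sets averaged, 2403 and 2709, 5 and 0; among unique-type probe sets, 2499 and 2903, 4 and 0 of 9; at 2-fold or more, 580 and 445, 1 and 0. The filter at the median level removed the low Cldn1 probe set, leaving 0 lower. Centring on the epithelial genes left 558 higher and 20988 lower, 1 and 11 among the 17. It turned the sign of the Cldn3 probe sets (-0.0743, -0.0311, -0.0563 and -0.0861), Ocln (-0.41), F11r (-0.29), Tjp1 (-0.66), both Cldn2 probe sets (-0.74 and -0.74) and Cldn1 on 1438850_at (-0.65) and 1450014_at (-0.68). Other turns of sign were among values near 0 that never passed. Cldn1 on 1438851_x_at gave 0.0017 with array weights, 0.0068 with quantile normalization, 0.0088 without WT array 4 and MT array 2, and -0.037 to 0.0369 without single arrays. Cldn1 on 1450014_at gave -0.13 with its probe sets averaged and -0.0177 to 0.157 without single arrays. Cldn2 gave -0.029 to 0.046 and -0.0144 to 0.0789 without single arrays, and -0.013 on 1417231_at without WT array 4 and MT array 2. The causes were not tested. In all, 264 of 292 alternatives for single probe sets kept direction and side of the threshold. Probe sets near the bacterial controls limit what can be read for Cldn1 and Cldn2.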
